A study of Mus musculus with 8 samples.

Results

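The guanylate-binding proteins (GBPs) and the immunity-related GTPases (IRGs) were examined in PD-1hi effector CD8 T cells from spleens of leukaemia-bearing mice after blockade of the interleukin 10 receptor (IL-10R). The genes were chosen by name: Gbp2, Gbp3, Gbp4, Gbp5, Gbp7, Gbp9, Irgm1, Irgm2, Igtp and Iigp1, each read from the brightest row of the deposited table that carries its symbol and no other. Of these 10 genes, 9 had such a row among the 22180 genes of the table. The signal of Gbp2 is given by a row that also names Gbp2b, so Gbp2 has no value here. Of the 9 genes, 8 passed the limit for dim genes, a mean of 5.24 over all arrays on the log2 scale, and were tested among 12019 genes; Iigp1 lay below it.

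The anti-IL-10R group (4 arrays) came from mice injected with an antibody that blocks IL-10R, and the isotype group (4 arrays) from mice injected with the matching control antibody. All animals were female C57BL/6 mice that carried transplanted leukaemia cells of Eµ-TCL1 donors, in which a TCL1 transgene expressed in B cells gives rise to a disease like chronic lymphocytic leukaemia. Dosing started 3 weeks after transplantation, went on for 2 weeks, and spleens were collected at week 5. The sorted cells lacked lineage markers and carried the T cell receptor beta chain, CD8, intermediate to high CD44 and high PD-1, with low CD127; the labels give no ages, differ on the interval between injections, and do not say whether each array stands for 1 animal. The hosts kept their own immune cells, and no mice without leukaemia were analysed here.

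GBPs and IRGs are GTPases that interferons, above all interferon gamma, induce in most cell types. GBPs are large, dynamin-like enzymes that assemble on pathogen vacuoles and on bacteria in the cytosol and open the way to the caspase-11 inflammasome. IRGs are smaller: Iigp1 (IRGA6) is an effector that attacks vacuole membranes, whereas Irgm1, Irgm2 and Igtp (IRGM3) are regulators that hold the effectors inactive on the cell's own membranes. In mouse CD4 T cells Irgm1 is also known for protecting dividing cells against interferon gamma. Transcription of these genes is known to run through gamma-activated sites (GAS) and, with IRF1 among the factors, through interferon-stimulated response elements (ISRE).

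The promoter stretches of Gbp5, Gbp7, Gbp3, Irgm1, Irgm2 and Igtp are shown because elements of one or both kinds lie in them close to the start site. They come from RefSeq, build GRCm38.p6, run 5′ to 3′ along the gene and end at the base before the annotated start; 150 bases are given, or 250 for Gbp5, where motifs lie farther away. Capitals mark matches, on either strand, to the GAS core TTCNNNGAA or the ISRE core GAAANNGAA, where N is any base. For Gbp3 the first of its windows in RefSeq is given.
Gbp5 (chr3:142496684-142496933, plus strand): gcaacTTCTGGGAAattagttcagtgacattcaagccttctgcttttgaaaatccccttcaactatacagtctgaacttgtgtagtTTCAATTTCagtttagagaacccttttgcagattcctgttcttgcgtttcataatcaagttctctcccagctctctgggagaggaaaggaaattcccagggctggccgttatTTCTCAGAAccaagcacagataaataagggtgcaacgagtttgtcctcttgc
Gbp7 (chr3:142530186-142530335, plus strand): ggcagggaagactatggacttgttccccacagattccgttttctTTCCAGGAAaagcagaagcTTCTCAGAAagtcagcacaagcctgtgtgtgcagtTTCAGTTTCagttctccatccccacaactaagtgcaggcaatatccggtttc
Gbp3 (chr3:142559894-142560043, plus strand): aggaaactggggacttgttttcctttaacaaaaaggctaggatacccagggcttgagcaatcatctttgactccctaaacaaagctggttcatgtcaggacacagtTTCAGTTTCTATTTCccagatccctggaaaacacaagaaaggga
Irgm1 (chr11:48871421-48871570, minus strand): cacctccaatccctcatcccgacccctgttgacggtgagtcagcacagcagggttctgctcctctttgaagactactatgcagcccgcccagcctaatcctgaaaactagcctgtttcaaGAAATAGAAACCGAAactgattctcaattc
Irgm2 (chr11:58214827-58214976, plus strand): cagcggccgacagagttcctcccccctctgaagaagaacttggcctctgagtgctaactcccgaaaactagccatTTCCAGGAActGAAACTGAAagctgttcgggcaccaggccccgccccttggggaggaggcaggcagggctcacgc
Igtp (chr11:58199406-58199555, plus strand): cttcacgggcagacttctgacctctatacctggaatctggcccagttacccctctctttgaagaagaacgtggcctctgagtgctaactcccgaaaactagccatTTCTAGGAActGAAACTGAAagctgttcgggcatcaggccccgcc

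A window of 300 bases, 250 before and 50 after the start, was used for 7 of the 10 genes, with 2 windows for Gbp3. Gbp4 and Gbp9 had no window, and windows of listed genes on chromosome 18, where Iigp1 lies, were left out. All 7 genes had an ISRE core in a window, and 4 of them (Gbp5, Gbp7, Irgm2 and Igtp) had a GAS core as well. Of all 32851 RefSeq windows of that length, 8.56% held the ISRE core, 8.3% the GAS core and 1.07% both. Gbp3 and Irgm1 carried 2 ISRE cores that overlap each other, and neither had a GAS core in the window; the second window of Gbp3 held no match. No GAS core overlapped an ISRE core. The upstream parts of Irgm2 and Igtp share an identical run of 55 bases, the longest between any of these genes, and in both the GAS core starts 11 bases ahead of the ISRE core. These matches describe the letters of the windows and are not sites shown to be bound in these cells.

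The probes of each row differ, so signals are compared between arrays for the same gene and never between genes. Each difference is a log2 value, the anti-IL-10R mean less the isotype mean, given with its standard error (SE) by limma, whose p-values carry the Benjamini-Hochberg adjustment over the 12019 tested genes, with a threshold of 0.05.

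No member passed the threshold after IL-10R blockade in limma, where 2.53% of all tested genes did. Most of them nevertheless sat higher in anti-IL-10R arrays: 7 of the 9 measured genes had a positive difference, Gbp3 and Iigp1 a negative one. The median over the 9 genes was 0.37, against 0.03 over all tested genes and −0.02 over all 22180 genes. Of all tested genes 54.7% had a difference above 0. At an unadjusted p below 0.05, limma listed 5 of the 8 tested genes (Gbp4, Gbp9, Gbp5, Irgm1 and Irgm2), where 20% of all tested genes reached that level. The differences ran between −0.30 for Gbp3 and 0.50 for Gbp4 and Gbp9, that is, between 0.81-fold and 1.42-fold, so every change was modest in size. In bulk samples, a smaller share of cells that express a gene and less RNA per cell cannot be told apart.

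**Figure D1:**
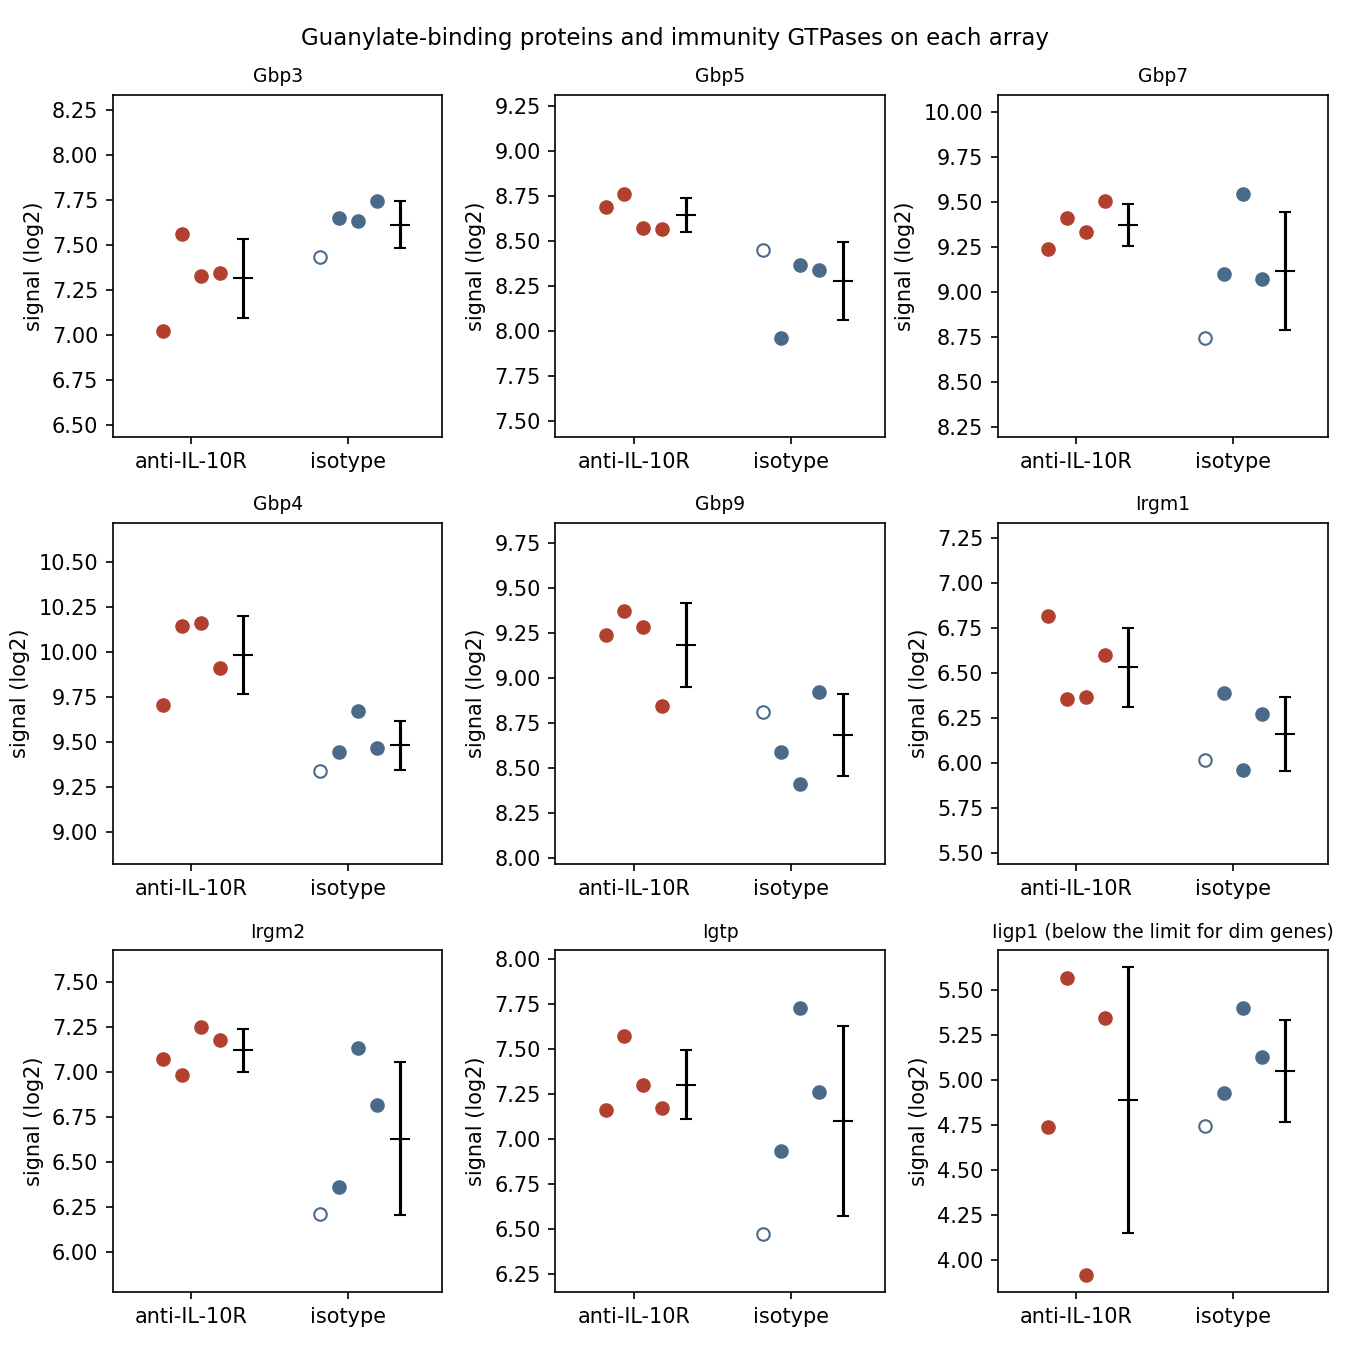
Signal (log2) of the 9 measured genes on each array, anti-IL-10R left and isotype right; points are single arrays, the open circle is isotype replicate 1, and the bars are the mean and SD of 4 arrays. Gbp4 and Gbp5 are the genes whose groups do not overlap, and Gbp3 is lower in most anti-IL-10R arrays.

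Among the GBPs of mouse chromosome 5, Gbp4, which in mouse restrains IRF7 activation, had 9.70, 10.14, 10.16 and 9.91 in the anti-IL-10R arrays, against 9.34, 9.44, 9.67 and 9.47 in the isotype arrays. Every anti-IL-10R array lay above every isotype array, though the lowest of them exceeded isotype replicate 3 by little. The difference was 0.50 ± 0.14 (SE), or 1.42-fold with a 95% confidence interval of 1.15 to 1.75 (limma adjusted p = 0.0815). Gbp9, its neighbour on that chromosome, had 9.24, 9.37, 9.28 and 8.85 in the anti-IL-10R arrays, against 8.81, 8.59, 8.41 and 8.92 in the isotype arrays. The first 3 of these anti-IL-10R arrays were above all isotype arrays, whereas anti-IL-10R replicate 4 fell among them. Gbp9 differed by 0.50 ± 0.16 (1.42-fold, interval 1.11 to 1.81, limma adjusted p = 0.118).

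The GBPs of chromosome 3 did not share a direction. Gbp5, which has been linked to inflammasome assembly in mouse macrophages, had 8.69, 8.76, 8.57 and 8.57 in the anti-IL-10R arrays, against 8.45, 7.96, 8.37 and 8.34 in the isotype arrays. Its groups were apart, with isotype replicate 2 well below the rest, and it differed by 0.37 ± 0.13 (limma adjusted p = 0.154). Gbp7, which in mouse macrophages helps to assemble the phagocyte oxidase, had 9.24, 9.41, 9.33 and 9.51 in the anti-IL-10R arrays, against 8.75, 9.10, 9.54 and 9.08 in the isotype arrays. Isotype replicate 3 was the highest of all arrays for Gbp7, and isotype replicate 1 the lowest. Its difference of 0.26 ± 0.16 (limma adjusted p = 0.425) became 0.13 without isotype replicate 1 and 0.40 without isotype replicate 3.

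Gbp3 ran the other way. It had 7.02, 7.56, 7.33 and 7.35 in the anti-IL-10R arrays, against 7.43, 7.65, 7.63 and 7.74 in the isotype arrays. Only anti-IL-10R replicate 2 rose above the lowest isotype array, isotype replicate 1. The difference was −0.30 ± 0.14 (limma adjusted p = 0.256), and −0.36 without isotype replicate 1.

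Counts of groups that do not overlap put Gbp4 and Gbp5 forward: in 2 of the 8 tested genes all anti-IL-10R arrays exceeded all isotype arrays, and 9.32% of all tested genes did so. No tested member had all anti-IL-10R arrays below all isotype arrays. The share of all tested genes with that opposite pattern was not counted, so this result has no background.

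Among the IRG regulators, Irgm2, which restrains caspase-11 responses in mouse macrophages, had 7.07, 6.98, 7.25 and 7.18 in the anti-IL-10R arrays, against 6.21, 6.36, 7.14 and 6.82 in the isotype arrays. The anti-IL-10R arrays were close together, while isotype replicate 3 reached into their range and isotype replicates 1 and 2 were far lower. The difference was 0.49 ± 0.20 (limma adjusted p = 0.203), and 0.35 without isotype replicate 1. Irgm1 had 6.82, 6.35, 6.37 and 6.60 in the anti-IL-10R arrays, against 6.02, 6.39, 5.96 and 6.28 in the isotype arrays. Anti-IL-10R replicates 1 and 4 were its highest arrays, and its groups overlapped through isotype replicate 2 (0.37 ± 0.15, limma adjusted p = 0.203).

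Igtp, needed in mice for resistance to Toxoplasma, had 7.16, 7.57, 7.30 and 7.18 in the anti-IL-10R arrays, against 6.48, 6.93, 7.73 and 7.26 in the isotype arrays. Isotype replicate 3 was the highest of all 8 arrays and isotype replicate 1 the lowest. Its difference of 0.20 ± 0.24 (limma adjusted p = 0.682) rested on isotype replicate 1, without which it was −0.0050, and it was 0.41 without isotype replicate 3. The effector Iigp1 had 4.74, 5.56, 3.91 and 5.34 in the anti-IL-10R arrays, against 4.74, 4.92, 5.40 and 5.13 in the isotype arrays. Its mean over all arrays lay under the limit for dim genes, and anti-IL-10R replicate 3 was the lowest of all. In the fit of all 22180 genes Iigp1 differed by −0.16 ± 0.32 (limma adjusted p = 0.863), and by 0.17 without anti-IL-10R replicate 3.

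**Figure D2:**
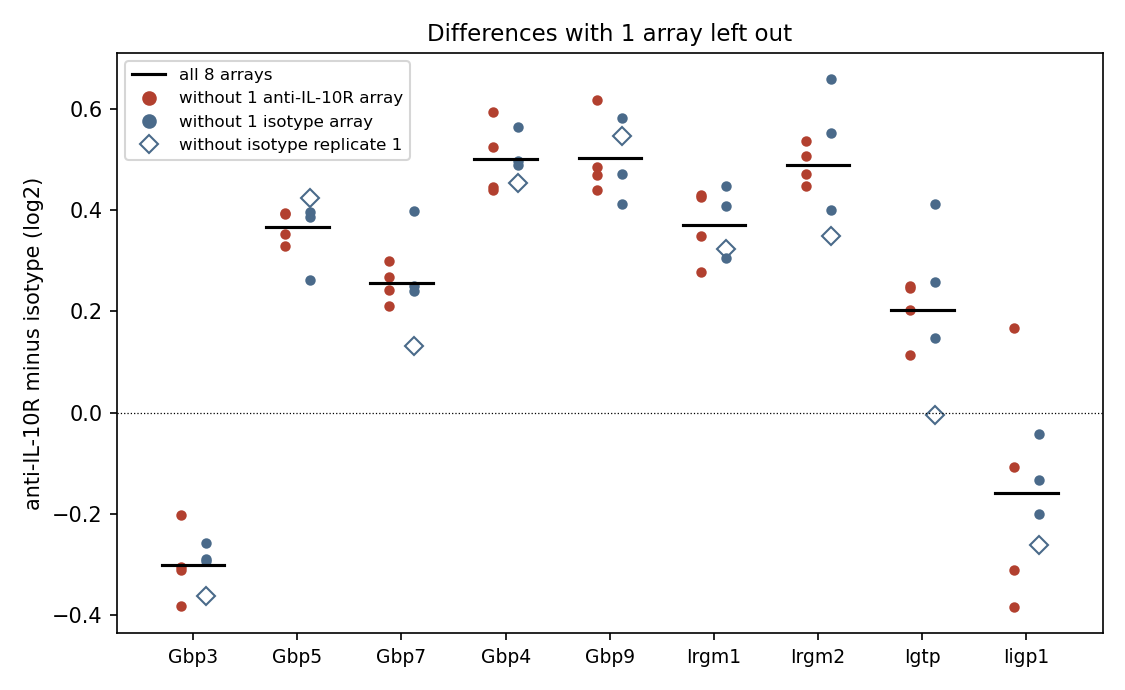
Difference of each gene (anti-IL-10R minus isotype, log2) with all 8 arrays (black line) and with 1 array left out (points; the open diamond leaves out isotype replicate 1). Gbp3 stays below 0, Gbp4, Gbp5, Gbp7, Gbp9, Irgm1 and Irgm2 stay above it, and Igtp reaches −0.0050 without isotype replicate 1.

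The genes did not vary as a block. Over the 8 arrays, Gbp7, Irgm2 and Igtp followed one another (Pearson's r 0.86 for Gbp7 with Irgm2 and with Igtp, 0.78 for Irgm2 with Igtp), with isotype replicate 1 lowest and isotype replicate 3 highest among the isotype arrays in all of them. Gbp5 went more with Gbp9 (0.76) and less with Igtp (0.29), and Gbp3 was opposed to Irgm1 (−0.67) and Gbp5 (−0.59). These coefficients describe 8 arrays that share the group difference and the array effects, and no test is attached to them. With each tested gene centred on its own mean, the average over the 8 genes was 0.08 to 0.24 in the anti-IL-10R arrays, against −0.35 to 0.02 in the isotype arrays. It was highest in anti-IL-10R replicate 2, where all 8 genes were above their own mean, and lowest in isotype replicate 1, where 0 of 8 were.

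Isotype replicate 1 stood apart across the genome. Over the tested genes it correlated with the other arrays at 0.915 to 0.929, and those correlated with each other at 0.962 to 0.986. Without it the median over the 9 genes was 0.32 and 6 of them were higher; no member passed the threshold there either, while Gbp5, Gbp4 and Gbp9 came nearest (limma adjusted p = 0.0586, 0.0610 and 0.0615), and 9.25% of all tested genes passed.

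The wider family showed where along the chromosomes the differences were largest. A list of 17 other interferon-inducible or related GTPases had 13 genes with a row, and 4 of these passed the limit for dim genes. Of these 4, Gbp10 rose after blockade and 3 did not pass, where 2.53% of all tested genes passed. Gbp10 had 10.03, 10.11, 10.01 and 9.72 in the anti-IL-10R arrays, against 8.86, 9.23, 9.34 and 9.45 in the isotype arrays. The groups were well apart, and the difference was 0.74 ± 0.15 (1.68-fold, interval 1.33 to 2.11, limma adjusted p = 0.0387). The call was kept without isotype replicate 1 (adjusted p = 0.0147, limma) and lost without any of the 7 other arrays (limma adjusted p 0.0767 to 0.127); it was also lost in the fit of all genes without the limit for dim genes (limma adjusted p = 0.0559).

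Gbp8 had 9.57, 9.46, 9.76 and 9.30 in the anti-IL-10R arrays, against 7.11, 8.86, 8.62 and 8.40 in the isotype arrays. It was the family gene with the widest gap, 1.28 ± 0.33 (limma adjusted p = 0.0728), and the smaller part of it came from isotype replicate 1. Without that array the gap was 0.90 and Gbp8 passed the threshold (limma adjusted p = 0.00923). In RefSeq order on chromosome 5, Gbp8, Gbp9, Gbp4 and Gbp10 are neighbours, and they had differences of 1.28, 0.50, 0.50 and 0.74. Their median was 0.62, against 0.26 for the 3 tested genes of the chromosome 3 cluster (Gbp5, Gbp7 and Gbp3) and 0.33 for the 4 of chromosome 11 (Irgm1, Gm12250, Igtp and Irgm2). Without isotype replicate 1 the medians were 0.59 for chromosome 5, 0.13 for chromosome 3 and 0.20 for chromosome 11. Whether these clusters differ was not tested. Gbp6 and Gbp11, which follow on chromosome 5, were dim, with differences of 0.03 ± 0.14 and 0.07 ± 0.19 in the fit of all genes; they are named for their place beside Gbp10, with their values known. With 1 array left out they ran between −0.04 and 0.16 and between −0.08 and 0.25.

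GBP genes are close copies of one another, so probes of a row may also read RNA of a neighbour, and the split of signal between Gbp6 and Gbp10 is uncertain in particular. Of the dim genes, Gbp2b and Mx1 differed by −0.22 ± 0.12 and −0.26 ± 0.15 (limma adjusted p = 0.476 and 0.499 over all genes), and Mx1 by −0.14 without anti-IL-10R replicate 4. Mx1, an antiviral GTPase, depends mainly on type I and III interferons. Gm12250, which encodes the effector IRGB10, had 8.67, 8.63, 8.98 and 8.65 in the anti-IL-10R arrays, against 7.81, 8.55, 8.56 and 8.84 in the isotype arrays. Its groups overlapped (0.29 ± 0.21, limma adjusted p = 0.475), and its difference was 0.08 without isotype replicate 1. The name of Gm12250 was added after its values were seen.

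**Figure D3:**
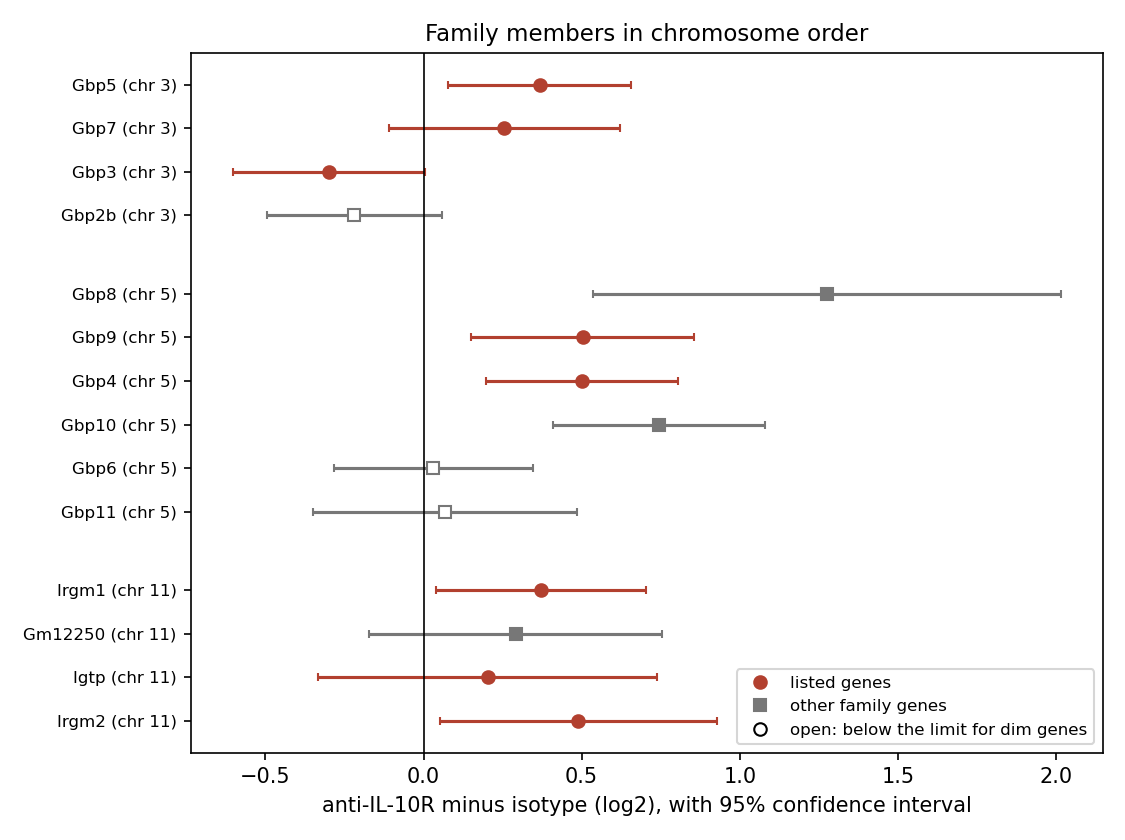
Difference (anti-IL-10R minus isotype, log2) with its 95% confidence interval for the family genes in RefSeq order on mouse chromosomes 3, 5 and 11. Circles are the listed genes, squares other family genes, and open symbols lie below the limit for dim genes; the 4 tested genes of chromosome 5 are all at 0.50 or more, and Gbp3 is at −0.30.

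In a list of 21 ligands, receptors, kinases, transcription factors and inhibitors, 20 were tested; 1 rose, 0 fell and the others did not pass, with a median of 0.16 (0.07 without isotype replicate 1) and 14 of 20 differences above 0. Of the 20 genes, 6 had an unadjusted p below 0.05 in limma, 5 had all anti-IL-10R arrays above all isotype arrays, and 1 had all of them below. Over all tested genes, 2.53% passed the threshold, 54.7% had a difference above 0, 20% reached that p and 9.32% had all anti-IL-10R arrays above. The share with all of them below was not counted. The gene that rose was Nlrc5, which drives transcription of MHC class I, with 10.16, 10.10, 10.26 and 10.22 in the anti-IL-10R arrays, against 9.65, 9.51, 9.71 and 9.63 in the isotype arrays. Its call was lost without any array other than isotype replicate 1 (limma adjusted p 0.0632 to 0.115). Irf1, the factor through which interferon gamma induces many GBPs, had 8.35 to 8.66 in the anti-IL-10R arrays, against 7.83 to 8.22 in the isotype arrays. These groups did not overlap either, and Irf1 differed by 0.45 ± 0.12 (limma adjusted p = 0.0834).

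Irf2, which competes with IRF1 for the same elements, differed by 0.33 ± 0.11 (limma adjusted p = 0.140). Ifnar2, a chain of the type I interferon receptor, was the gene of the list with the largest negative difference, −0.78 ± 0.22, and every anti-IL-10R array (5.77 to 6.95) lay under every isotype array (7.08 to 7.34) (limma adjusted p = 0.0879). The following genes are named for their place in the pathway, with their values known. Ifng, the gene of the inducing cytokine itself, had 9.84, 10.22, 10.02 and 9.73 in the anti-IL-10R arrays, against 10.01, 10.32, 10.33 and 10.21 in the isotype arrays. It was not higher after blockade (−0.26 ± 0.14, limma adjusted p = 0.322, overlapping groups). The interferon gamma receptor chains Ifngr1 and Ifngr2 differed by 0.11 ± 0.19 and 0.14 ± 0.14, and the kinases Jak1, Jak2 and Tyk2 by 0.29 ± 0.10, 0.23 ± 0.11 and 0.42 ± 0.14 (limma adjusted p 0.141 to 0.796). The negative regulators Socs1 and Socs3 differed by 0.18 ± 0.15 and −0.03 ± 0.19. Without isotype replicate 1, the differences were −0.04 for Ifngr1, 0.02 for Ifngr2 and 0.07 for Socs1, and with 1 array left out Socs3 ran between −0.20 (without anti-IL-10R replicate 1) and 0.08 (without isotype replicate 4).

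**Figure D4:**
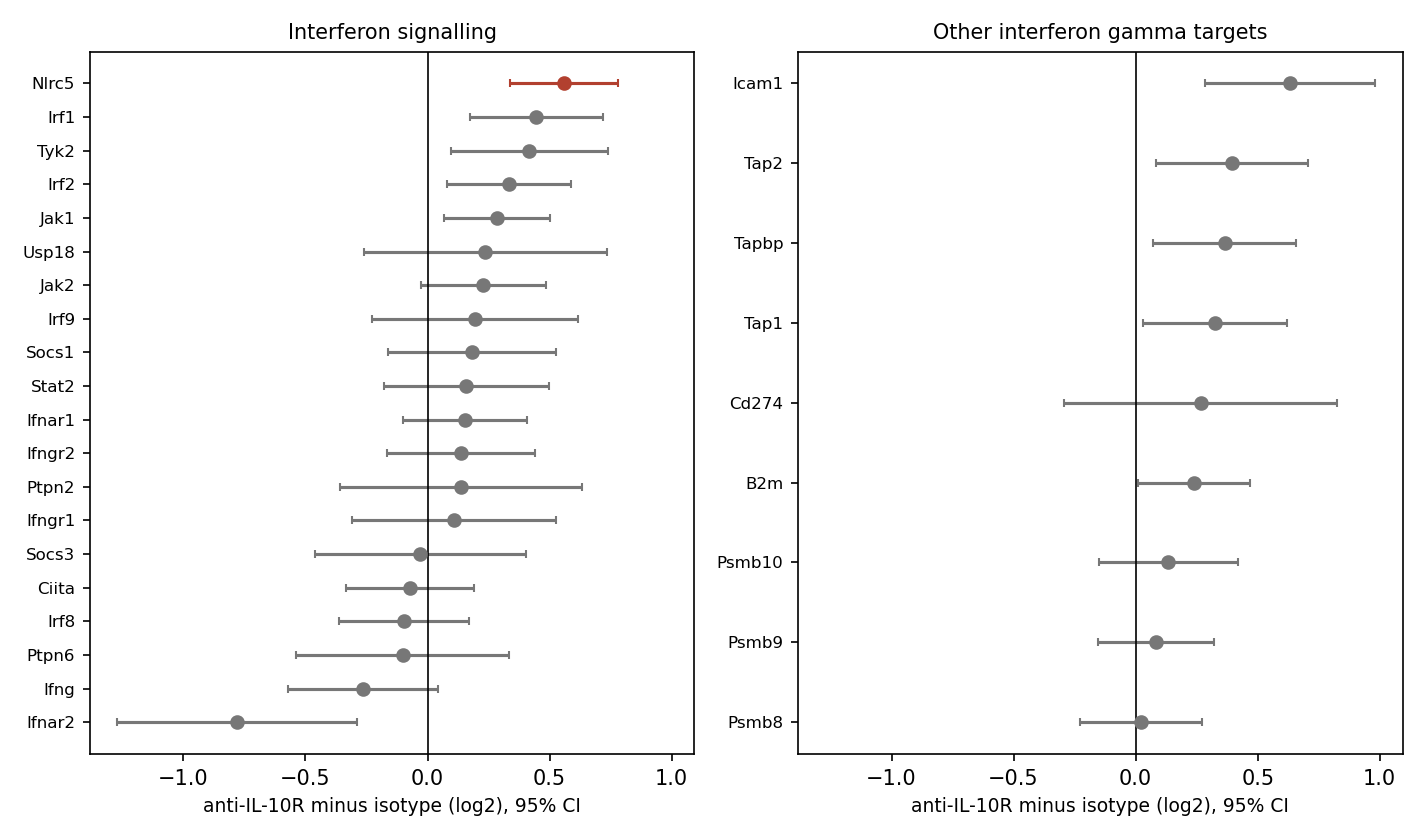
Difference (anti-IL-10R minus isotype, log2) with its 95% confidence interval for the tested genes of interferon signalling (left) and for other interferon gamma targets (right). The red point, Nlrc5, passed the threshold, and Ifng and Ifnar2 are at −0.26 and −0.78.

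The tested genes among other interferon gamma targets had higher means in the anti-IL-10R arrays, and none passed the threshold. Of 13 listed genes, 9 were tested and 0 passed in limma, where 2.53% of all tested genes passed. Of the 9, 5 had an unadjusted p below 0.05 and all 9 were above 0, against 20% and 54.7% of all tested genes. Their median was 0.27 (0.18 without isotype replicate 1, and then 7 of 9 above 0). Icam1, the ligand of the integrin LFA-1, differed by 0.63 ± 0.16 (limma adjusted p = 0.0641, and 0.0355 without isotype replicate 1). The peptide transporter genes Tap1 and Tap2 and their partner Tapbp differed by 0.32 ± 0.13 (0.21 without isotype replicate 1), 0.40 ± 0.14 and 0.36 ± 0.13.

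Partners of the GTPases in the cell showed no call either. Of 11 genes listed for the machinery that directs GBPs and IRGs to membranes, 0 passed and 0 had an unadjusted p below 0.05 in limma. Their median was 0.23 (0.08 without isotype replicate 1). Those with the smallest p were Gabarap (0.30 ± 0.14, or 0.18 without isotype replicate 1), Atg16l1 (0.23 ± 0.11), Sqstm1 (0.23 ± 0.12) and Map1lc3b (0.39 ± 0.21, or 0.18 without isotype replicate 1). Of 8 inflammasome genes, 5 were tested, 0 passed and 2 had an unadjusted p below 0.05: Casp1 (0.40 ± 0.10, limma adjusted p = 0.0676) and Casp4, which encodes caspase-11 in mouse (0.29 ± 0.11, limma adjusted p = 0.187). Of all tested genes, 2.53% passed the threshold and 20% had such an unadjusted p. The median of the 5 inflammasome genes was 0.21, and 0.14 without isotype replicate 1. Casp1 had 10.42, 10.34, 10.28 and 10.33 in the anti-IL-10R arrays, against 9.89, 9.92, 9.87 and 10.09 in the isotype arrays, with no overlap. Without isotype replicate 1 it passed the threshold (limma adjusted p = 0.0393). The cytokine genes Il18 and Il1b were dim and differed by 0.73 ± 0.16 and −0.28 ± 0.12 in the fit of all genes.

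Genes for the sorted surface proteins and for IL-10R itself also sat higher in the anti-IL-10R arrays. All 9 tested ones had a positive difference, with a median of 0.27, where 54.7% of all tested genes had one. In 6 the groups were apart, against 9.32% of all tested genes with the anti-IL-10R arrays higher. None passed the threshold in limma, and 6 had an unadjusted p below 0.05, against 2.53% and 20% of all tested genes. The groups were apart for Cd3e, Cd3g, Cd8a, Cd8b1, Pdcd1 and Il10ra, with differences of 0.27, 0.22, 0.31, 0.30, 0.50 and 0.51, and they overlapped for Cd3d (0.14), Cd44 (0.19) and Il10rb (0.07). Without isotype replicate 1 the difference was 0.30 for Pdcd1, 0.08 for Cd3d, 0.06 for Cd44 and 0.01 for Il10rb, and Il10ra passed the threshold (limma adjusted p = 0.0413). Il7r, for CD127, was dim in both groups (3.60 ± 0.50 and 3.57 ± 0.62, SD, n = 4 each), and its groups overlapped. The shifts of the 9 tested genes ran between 0.07 and 0.51, with a median of 0.27, against a median of 0.37 over the members. Their part in the members' differences was not tested.

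Among other cells that express GBPs, markers of B cells, macrophages and monocytes, and neutrophils were mostly dim. Below the limit were 2 of 4 natural killer cell, 2 of 4 CD4 T cell and 2 of 7 dendritic cell markers with a row. For B cells, which include the leukaemia, 9 of 10 markers had a row and 6 of these lay below the limit; their mean signal was 4.80 to 4.93 in the anti-IL-10R arrays, against 4.80 to 5.33 in the isotype arrays. For macrophages and monocytes, 6 of 10 were below the limit, and the mean was 5.18 to 5.31 in the anti-IL-10R arrays, against 5.18 to 5.58 in the isotype arrays, with isotype replicate 1 the highest. All 7 neutrophil markers were below the limit. Natural killer cell markers averaged 6.32 to 6.90 in the anti-IL-10R arrays, against 6.39 to 6.81 in the isotype arrays. Gzma and Klre1, named with their values known, carried this average. Their means were 10.09 and 8.38 in the anti-IL-10R arrays, against 9.33 and 8.72 in the isotype arrays. Ncr1 and Klrb1c, named likewise, were dim (4.17 and 4.10, against 4.08 and 4.22). Which cells gave the signal of Gzma and Klre1 was not tested. CD4 T cell markers averaged 5.08 to 5.38 in the anti-IL-10R arrays, against 5.15 to 5.94 in the isotype arrays, with isotype replicate 1 the highest. Foxp3, the defining gene of regulatory T cells and named after its values were seen, had 5.08 to 5.64 in the anti-IL-10R arrays, against 7.97 in isotype replicate 1 and 5.46 to 5.95 in the other isotype arrays. The other CD4 T cell markers, also named after their values were seen, showed no gap of that size. In isotype replicate 1 Cd4 had 5.46, Cd40lg 4.27 and Zbtb7b 6.08. The other isotype arrays had 4.88 to 5.30, 4.19 to 4.26 and 5.85 to 6.19 for these genes. Cd4 and Cd40lg were dim. Isotype replicate 1 is also the array with the lowest average of the listed genes. Dendritic cell markers averaged 6.06 to 6.23 in the anti-IL-10R arrays, against 6.16 to 6.34 in the isotype arrays. Bst2, named with its values known, was the brightest of them, with means of 9.23 in the anti-IL-10R arrays and 9.59 in the isotype arrays. With the B cell mean of each array as a covariate the median over the 9 genes was 0.46, and with the macrophage and monocyte mean 0.35; the part of other cells in the members' differences was not tested further.

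The tested genes outside the list whose pattern over the 8 arrays was most like the average of the listed genes were Atp8a1 (Pearson's r 0.99), a phospholipid flippase, Notch1 (0.99), a receptor of T cell fate, Rnf167 (0.98), a ubiquitin ligase of endosomes and lysosomes, Rc3h2 (0.98), the RNA-binding protein Roquin-2, and Marveld1 (0.98). They differed by 0.72 ± 0.20, 0.47 ± 0.14, 0.69 ± 0.18, 0.58 ± 0.14 and 0.46 ± 0.13 between anti-IL-10R and isotype arrays, and none of the 5 passed the threshold (limma adjusted p 0.0641 to 0.104). The likeness was picked as the highest among all tested genes and includes the low values of isotype replicate 1.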

How the data were processed

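RNA of sorted splenic T cells was hybridised to GeneChip Mouse Gene 2.0 ST arrays, 1 sample each, per the labels' protocols. The authors deposited 1 value per transcript cluster and array, and the submitters' processing notes name Affymetrix Power Tools as their software; its version, the summarisation and any normalization were not stated there. The values are on the log2 scale, as read from their range in the deposited table (1.57 to 13.89), with array medians of 5.19 to 5.31. Scanner files were not used, so detection could not be set per probe, and the number of arrays limits precision.

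Of 41345 rows, 23521 had exactly 1 gene symbol in the platform annotation, updated through RefSeq of GRCm38.p6, 1814 had several and 16010 had none. The brightest row of a gene was kept, and genes with a mean of at least 5.24, the median of all row means, were tested. Groups were compared by the moderated linear model of limma 3.58.1 (R 4.3.3), two-sided, with Benjamini-Hochberg adjustment over all tested genes; a dim gene takes its values from the same fit of all 22180 genes. The scripts were tested on simulated data. Since the labels do not say that arrays are separate animals, p-values rest on array-to-array spread, which may be technical. Genes named beyond the 10 are those of the sort and target, those past the threshold, up to 4 with the smallest p in each list, and the 5 whose pattern was most like the members; the exceptions are marked. Members, lists and rules were chosen with earlier results of these data known. Alternatives were other filters, quantile normalization, median centring, the mean of a gene's rows, a trended robust variance, array weights, a block, marker covariates and each array left out.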

Additional observations from a re-analysis of the deposited data

Results flagged for a closer look

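None of the 9 listed genes with a value had an array far from the other 3 of its group by Dixon's ratio, the gap of an extreme array to its neighbour over the group's range, with a critical value for 4 arrays that chance passes in about 1 of 20 groups. Among the other genes named or plotted, cell type markers aside, 16 groups did. Cell type markers were not screened, and how many of the screened groups chance would pass was not worked out. In the isotype arrays these were Cd44 (0.971), Psmb10 (0.968), Ptpn6 (0.935), Cd274 (0.899), Pdcd1 (0.888), Psmb9 (0.853), Gabarap (0.834) and Il10ra (0.832). The lone array was isotype replicate 4 for Il10ra and isotype replicate 1 for the others, where it was the lowest. In the anti-IL-10R arrays they were Socs3 (0.954), Ciita (0.925), Gm12250 (0.906, anti-IL-10R replicate 3), Il7r (0.867), Notch1 (0.862), Irf8 (0.856), Cd3e (0.840) and Mx1 (0.832).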

How the results depend on the processing

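All 9 genes with a row were refitted under 18 alternatives, or 17 for Irgm1, Irgm2 and Iigp1, which the stricter filter removed. Gbp3, Gbp4, Gbp5, Gbp7, Gbp9, Irgm1 and Irgm2 kept their direction in all of them. With 1 array left out, Igtp ran between −0.0050 (without isotype replicate 1) and 0.41, and Iigp1 between −0.38 and 0.17 (without anti-IL-10R replicate 3); Iigp1 also turned to 0.14 with the B cell covariate. The median over the 9 genes was 0.26 to 0.40 with 1 array left out and 0.30 after quantile normalization. No gene passed the threshold except with array weights, which called 3 (Gbp4, Gbp5 and Gbp9, limma adjusted p = 0.0332, 0.0429 and 0.0358), and with the macrophage and monocyte covariate, which called 1 (Gbp4, limma adjusted p = 0.0448); 12.2% and 9.88% of all tested genes passed there.

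Over all genes, 304 passed (148 higher, 156 lower), against 145 without a filter, 460 with the stricter one (means of at least 6.97), 631 after quantile normalization (204 higher, 427 lower), 117 after centring (42 higher, 75 lower), 1469 with array weights, 1187 with the macrophage and monocyte covariate, 4 with the B cell covariate, and 3 to 1112 with 1 array left out. Interferon signalling genes past the threshold numbered 0 after centring and with the B cell covariate, 2 with the trended variance, 4 with array weights and 4 with the macrophage and monocyte covariate, and 0 to 1 with 1 array left out. With the replicate number as a block (replicate block), 4 genes passed, 0 of them members or interferon signalling genes. This number is that of the sample descriptions. The numbers in the sample titles differ between the groups for replicate 1 and are shared for the other replicates. Deviations of arrays with the same description number correlated at −0.05, 0.12, 0.02 and −0.16. These coefficients also carry effects of single arrays such as isotype replicate 1, so they cannot settle whether the numbers pair the arrays. The cause of these changes was not tested.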
